A study of Rattus norvegicus with 24 samples.

Results

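Cardiac muscle transcripts in rat lung RNA were followed through 9 genes, Myh6, Myl4, Myl7, Actc1, Tnnt2, Tnni3, Ttn, Ryr2 and Nppa, picked by their symbols from a table of 30043 genes. Each gene was matched to 1 row, so all 9 were found. The RNA came from a piece of lung of 24 male Fischer rats (F344/DuCrl), bought at 3 months of age and kept for 29 weeks in whole-body inhalation chambers, with 6 animals in each of 4 groups. The combined group breathed silica and cigarette smoke, the silica group silica alone, the smoke group smoke alone, and the air group air only. Silica was Min-U-Sil 5, a finely ground crystalline quartz dust, at 15 mg/m3 for 6 h a day on 5 days of week 3, with air before and after it in the silica group. Smoke was given for 3 h on each of the exposure days, Tuesday and Friday, at 80 mg/m3 through week 29. It began in week 1 at 45 mg/m3 in the combined group and at 40 mg/m3 in the smoke group, which breathed air in week 3. The part of the lung taken was not given in the sources used here.

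Cardiac muscle contracts when calcium, let out of an internal store through the ryanodine receptor, frees actin filaments to be pulled by myosin, while titin holds both sets of filaments in register. In rodents a sleeve of this muscle leaves the left atrium and runs along the pulmonary veins into the lung, so rodent lung RNA can hold heart transcripts. This sleeve is related to the atrium, and the atrium uses the myosin light chains Myl4 and Myl7, where the ventricle uses Myl3 and Myl2.

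Total counts lay between 1084815 and 4687805 in 22 libraries, at 280484 in silica 4 and at 21629 in smoke 2. A level is given in CPM, counts per 1000000 of the library's total after TMM scaling, and libraries are named by group and number. Observing 3 counts equals 159 CPM in smoke 2, 10.8 CPM in silica 4 and 0.615 to 2.82 CPM elsewhere. Hemoglobin and other erythroid genes summed to 627000 CPM in smoke 2 against 2520 to 15300 CPM in the other 23, so results are also given without that library. The lung epithelial list (Sftpc, Sftpa1, Scgb1a1 and Ager) summed to 12100 to 25500 CPM in the 23, in keeping with the label of lung. In smoke 2 it summed to 1060 CPM. The count columns carry BL in their names where the sample titles carry Lu, and were matched through the sample descriptions. In a piece of bulk tissue, fewer cardiac cells and less cardiac RNA per cell cannot be told apart.

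The 8 members other than Nppa were read in every group and passed the filter on low counts, while Nppa did not. They varied widely between animals of a group. Their biological coefficient of variation (the fitted spread between animals relative to the mean) had a median of 0.526, against 0.115 over all 13322 genes tested. The spread was 0.924 for Myl7, 0.821 for Myh6, 0.730 for Myl4, 0.531 for Actc1, 0.521 for Ryr2, 0.505 for Tnnt2, 0.448 for Tnni3 and 0.220 for Ttn. Of the 13322 genes, ordered from the largest spread, Myl7 stood at rank 27, Myh6 at rank 42 and Myl4 at rank 60. Ttn stood at rank 1394. The share of genes with a higher value was 0.195% for Myl7 and 10.5% for Ttn. The average log2 CPM of Myh6 was 5.50, though 4 libraries held 1 to 5 counts of it, and the part of low counts in these spreads was not tested.

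**Figure D1:**
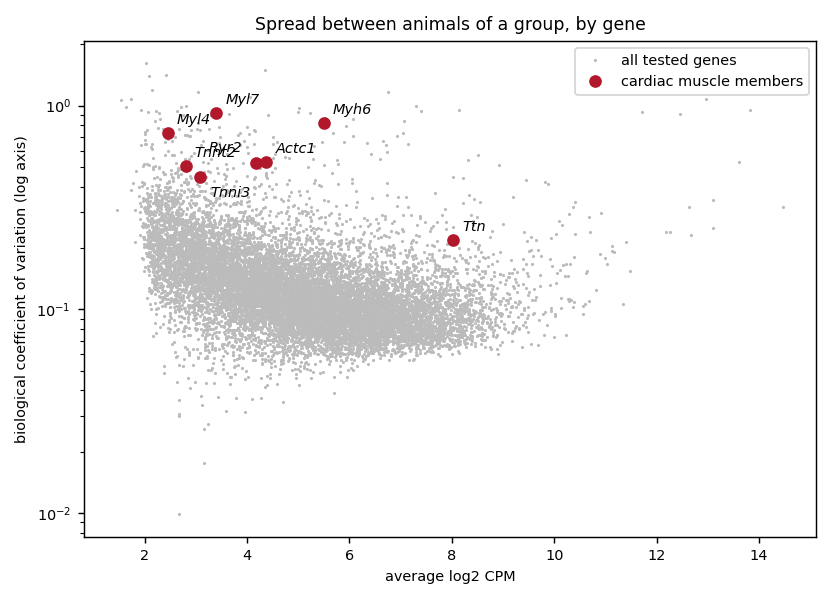
Biological coefficient of variation (log axis) against average log2 CPM for all 13322 tested genes (grey) and the 8 tested cardiac muscle members (red). All 8 members lie above the all-gene median of 0.115, from 0.220 for Ttn to 0.924 for Myl7.

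Myh6 encodes alpha myosin heavy chain, the motor of atrial muscle and of the adult rodent ventricle. Its lowest, median and highest CPM were 1.5, 30.1 and 101 in the combined group, 3.59, 24 and 70.1 in the silica group, 49.4, 60.8 and 265 in the smoke group, and 7.85, 32.2 and 115 in the air group. The 265 CPM were 5 counts in smoke 2, with an exact Poisson interval of 86.0 to 618 CPM that covers counting error only. Without it the smoke libraries spanned 49.4 to 73.5 CPM, the tightest of the 4 groups. The combined group held 3 libraries at 55.4 to 101 CPM (1, 4 and 5) and 3 at 1.5 to 4.75 CPM (2, 3 and 6), with none between. Every group's range overlapped every other's. Across 23 libraries the highest Myh6 level was 76.7 times the lowest.

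Myl4 and Myl7 encode the atrial essential and regulatory light chains of myosin. Myl7 had a lowest, median and highest level of 0, 3.07 and 25.2 CPM in the combined group, 0, 5.69 and 22.1 CPM in the silica group, 0, 8.64 and 17.2 CPM in the smoke group, and 0.488, 10.6 and 28.4 CPM in the air group. The zeros were combined 2, silica 4 and smoke 2, of which silica 4 and smoke 2 were the shallow libraries. Myl4 gave 0, 1.79 and 7.03 CPM in the combined group, 0.934, 4.6 and 9.22 CPM in the silica group, 0, 2.70 and 7.60 CPM in the smoke group, and 0.977, 3.27 and 14.7 CPM in the air group. Air 1 was the highest library for both genes and air 2 the lowest of the air group for both. Myl4 lies over part of Cdc27 in the RefSeq annotation, a cell-division gene with 7192 counts against 256 for Myl4, and with the strand option of the counting unstated, some Myl4 counts may belong to Cdc27.

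The promoters of the 3 myosin members and of Nppa are printed because atrial muscle expresses these genes and they lie at the ends of the members' range, from rank 27 in spread to no detection. Each run is the 250 bases before the gene's start in RefSeq (build GRCr8), 5' to 3' on the gene's own strand, with motif matches in capitals. Myh6 is chr15:32411698-32411947 on the minus strand, Myl4 chr10:89975900-89976149 on the plus strand, Myl7 chr14:84996625-84996874 on the minus strand and Nppa chr5:163711934-163712183 on the plus strand.
Myh6: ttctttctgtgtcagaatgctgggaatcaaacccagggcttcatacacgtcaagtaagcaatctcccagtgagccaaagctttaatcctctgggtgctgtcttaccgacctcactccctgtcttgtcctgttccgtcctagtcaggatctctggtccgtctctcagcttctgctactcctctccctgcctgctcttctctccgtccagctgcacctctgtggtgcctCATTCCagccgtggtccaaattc
Myl4: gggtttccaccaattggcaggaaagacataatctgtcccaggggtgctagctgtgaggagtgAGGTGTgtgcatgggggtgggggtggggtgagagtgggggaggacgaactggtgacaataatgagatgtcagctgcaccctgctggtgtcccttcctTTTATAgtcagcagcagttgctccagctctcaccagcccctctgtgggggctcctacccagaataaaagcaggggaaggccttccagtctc
Myl7: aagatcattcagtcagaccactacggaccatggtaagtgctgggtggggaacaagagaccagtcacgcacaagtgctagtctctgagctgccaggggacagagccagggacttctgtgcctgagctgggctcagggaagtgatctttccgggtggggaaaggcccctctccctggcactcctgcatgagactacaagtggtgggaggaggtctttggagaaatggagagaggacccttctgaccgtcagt
Nppa: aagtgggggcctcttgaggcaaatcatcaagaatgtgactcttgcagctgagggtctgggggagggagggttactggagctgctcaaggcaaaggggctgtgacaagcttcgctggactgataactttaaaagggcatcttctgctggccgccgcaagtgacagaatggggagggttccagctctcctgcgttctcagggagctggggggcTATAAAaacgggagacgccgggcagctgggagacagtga

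The motifs searched, on both strands, were AGATAA (the core read by GATA factors), AGGTGT (T-box), GGAATG (the M-CAT element), TATAAA (the TATA box), and the MEF2 and CArG motifs by name. In these 4 windows the matches were GGAATG in Myh6, on the opposite strand and beginning 23 bases before the start, AGGTGT in Myl4, 188 bases before it, TATAAA in Myl4 on the opposite strand, 91 bases before it, and TATAAA in Nppa, 39 bases before it. Myl7 held none. Among the other members, Tnnt2 held AGATAA and GGAATG in the first of its 2 entries, Tnni3 AGATAA, Ttn the MEF2 motif, and Actc1 and Ryr2 none. Of 33469 RefSeq promoters, windows of the same length held TATAAA in 12.9%, GGAATG in 12.1%, AGGTGT in 11.6%, AGATAA in 10.3%, MEF2 in 2.96% and the CArG motif in 1.5%. A match is a run of letters, not a shown binding site.

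Actc1, Tnnt2 and Tnni3 belong to the thin filament. Actc1 encodes cardiac alpha actin. It had 5.11, 12.7 and 26.6 CPM (lowest, median, highest) in the combined group, 3.59, 10.9 and 22.4 CPM in the silica group, 19.9, 27.3 and 318 CPM in the smoke group, and 5.23, 19.2 and 49.2 CPM in the air group. Smoke 2 gave the 318 CPM from 6 counts, and the other 5 smoke libraries stopped at 30.0 CPM. Actc1 is close in coding sequence to the other actins: Acta2 and Actg2, of smooth muscle, had 2693 and 1114 counts in all against 1122 for Actc1, and Acta1, of skeletal muscle, had 16. Across 23 libraries, the log2 level of Actc1 went with that of Actg2 (Pearson r = 0.813, Spearman rho = 0.819, permutation p = 1e-05 for each, the smallest the resamples allow, adjusted p = 2e-05 and 4e-05 over 8 relations) and with that of Acta2 (r = 0.691, p = 0.00026, adjusted 0.000416, and rho = 0.788, p = 4e-05, adjusted 6.4e-05, by permutation). Leaving out the 2 libraries farthest from the median gave r = 0.818 and 0.690. Reads shared between these actins were not tested.

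Tnnt2 encodes cardiac troponin T, which ties the troponin complex to tropomyosin. Its CPM were 1.5, 4.97 and 10.3 (lowest, median, highest) in the combined group, 3.26, 3.66 and 8.22 in the silica group, 3.64, 9.42 and 53.0 in the smoke group, and 0.968, 4.18 and 14.2 in the air group. Tnni3 encodes cardiac troponin I, the inhibitory subunit. Its CPM were 1.03, 5.22 and 19.7 in the combined group, 3.73, 5.82 and 10.5 in the silica group, 7.27, 11.1 and 53.0 in the smoke group, and 3.37, 7.12 and 11.3 in the air group. The 53.0 CPM of smoke 2 were 1 count of each gene. The slow and fast skeletal troponins stayed near 0, with 20 counts of Tnnt1, 22 of Tnni1 and 8 of Tnni2 in all libraries, against 332 of Tnnt2 and 413 of Tnni3. Fast troponin T (Tnnt3) was the exception with 416 counts.

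Ttn encodes titin, the spring that links the Z-disc to the middle of the sarcomere. It was the steadiest member. Its CPM were 161, 246 and 346 (lowest, median, highest) in the combined group, 179, 239 and 322 in the silica group, 243, 288 and 477 in the smoke group, and 192, 239 and 397 in the air group. Over 23 libraries its highest level was 2.47 times its lowest, where the other members together spanned 19.6 times (12.9 CPM in combined 6 to 253 CPM in air 1). Ttn did not vanish with the others: combined 3 held 475 Ttn counts beside 4 of Myh6, and combined 6 held 332 beside 3. That is 119 and 111 Ttn counts per Myh6 count, against 3.43 in combined 1 and 3.45 in air 1. Transcript lengths were not used here, so ratios and shares of counts between genes compare libraries, not amounts of transcript within a library.

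Ryr2 encodes the cardiac ryanodine receptor, the calcium release channel. Its CPM were 2.58, 13.2 and 28.5 (lowest, median, highest) in the combined group, 7.44, 13.7 and 28.7 in the silica group, 20.7, 24.2 and 159 in the smoke group, and 4.11, 16.7 and 31.0 in the air group. The 159 CPM were 3 counts in smoke 2, and the other smoke libraries stopped at 26.4 CPM. The combined libraries 2, 3 and 6 were the 3 lowest of their group for 8 of 8 tested members, Ttn included.

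**Figure D2:**
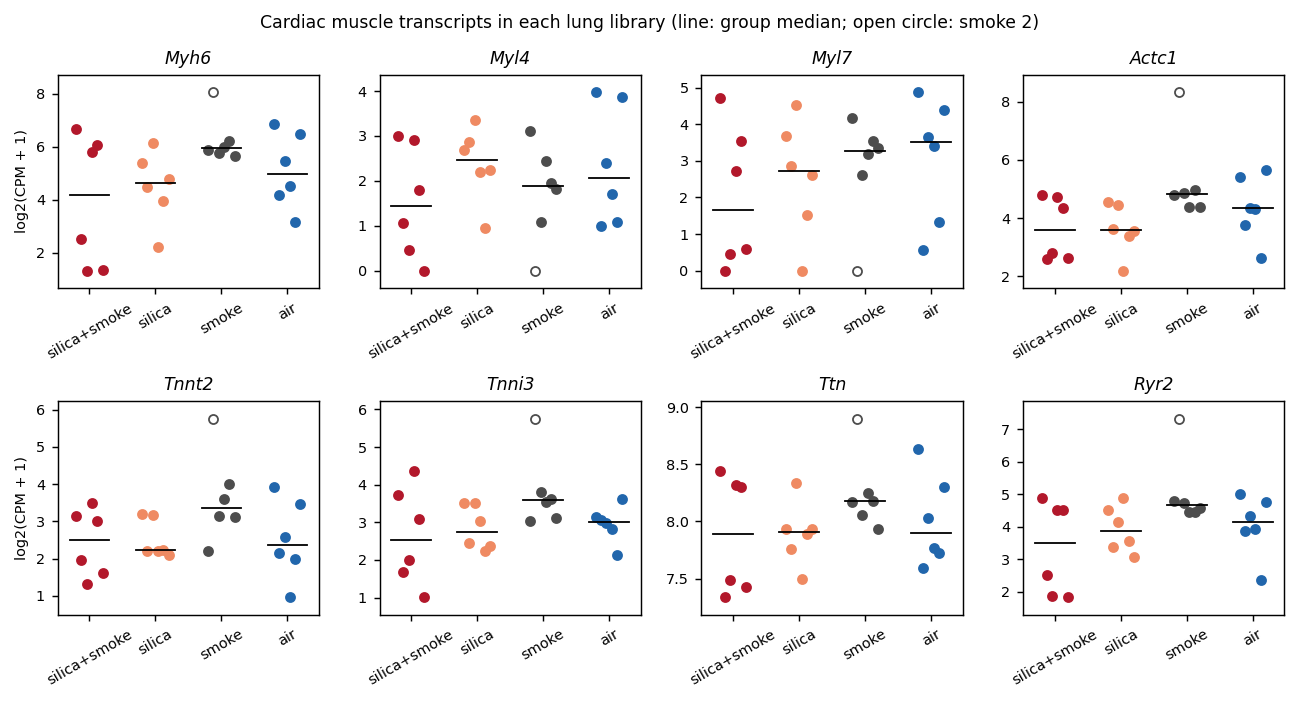
Level of each tested member, as log2(CPM + 1), in every library, by group (6 a group, silica+smoke being the combined group); the line is the group median and the open circle is smoke 2. In 6 of the 8 panels smoke 2 is the highest point, and the combined group splits into 3 high and 3 low libraries for Myh6.

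Nppa encodes atrial natriuretic peptide, the hormone that atrial muscle stores and secretes. It was all but undetected: 2 counts in smoke 3 (0.740 CPM) and none in the other 23 libraries. Those 23 held 51878038 counts in all, in which 3 counts would be 0.0578 CPM, and the limit was 0.218 CPM over the combined group, 0.254 CPM over the silica group and 0.173 CPM over the air group. No annotated gene overlaps Nppa, and its neighbours in the RefSeq annotation were Nppb, the ventricular peptide gene, with 1 count, and Clcn6 with 2278. The label of pulmonary vein muscle can therefore be checked only in part: Myh6, Myl4 and Myl7 were present as in atrial-type muscle, the atrial hormone was not detectable at this depth outside 1 library, and nothing in the counts places any transcript in a vein. Nkx2-5, a transcription factor of pulmonary vein muscle in mouse, had 3 counts in all.

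No member passed the test in any comparison. In the combined group against air, 0 of 8 tested members passed an adjusted p of 0.05 (edgeR quasi-likelihood test on 24 libraries, Benjamini-Hochberg adjustment over 13322 genes), where 22.4% of all tested genes did. The counts were likewise 0 of 8 for silica against air (3.17% of genes), smoke against air (0.15%), combined against silica (0.248%) and combined against smoke (12.9%). The interaction, which asks whether the combined change differs from the sum of both single changes, called 0 members and 0% of genes, with 977 genes at an unadjusted p under 0.05. No member had an unadjusted p under 0.05 in any of the 6, and DESeq2 called none.

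The fitted changes of the members leaned one way in 3 comparisons without passing the test. In the combined group against air all 8 log2 fold changes were negative, with a median of -0.41 against -0.01 over all genes. Actc1 stood at -0.85 ± 0.42 (SE, adjusted p = 0.152 by edgeR), Myl4 at -1.23 ± 0.63 (0.167) and Ttn at -0.10 ± 0.18 (0.740). Silica against air gave 8 of 8 negative values with a median of -0.42 against -0.0044 over all genes, and Actc1 had the lowest adjusted p, 0.310 by edgeR, at -0.84 ± 0.44. Both comparisons share the 6 air libraries, and members that move together are not independent votes. Smoke against air gave 6 positive and 2 negative values with a median of 0.19 against -0.01 over all genes, led by Tnnt2 at 0.53 ± 0.45 (adjusted p = 0.823 by edgeR, and 0.50 without smoke 2). Against silica alone, the combined group had a median of -0.02 (5 negative, 3 positive). The 95% intervals were wide: for Myh6 in the combined group against air, -1.59 to 0.85.

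Combined against smoke gave the lowest values as a group, with 8 of 8 negative and a median of -0.62 against 0.002 over all genes. By edgeR, Actc1 was at -0.89 ± 0.45 (adjusted p = 0.198), Ryr2 at -0.86 ± 0.43 (0.197), Tnnt2 at -0.83 ± 0.48 (0.261) and Myh6 at -0.67 ± 0.61 (0.509). Without smoke 2, Actc1 stood at -0.82 (adjusted p = 0.217), Ryr2 at -0.82 (0.216) and Myh6 at -0.65 (0.537). The call depended on the tool here. With limma's voom and library quality weights, 4 of the 8 members fell in the combined group against smoke, where that fit called 3368 genes and 12% of all genes fell: Myh6 at -2.24 (adjusted p = 0.0303), Ryr2 at -1.45 (0.0198), Actc1 at -1.18 (0.0315) and Tnni3 at -1.12 (0.0245).

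**Figure D3:**
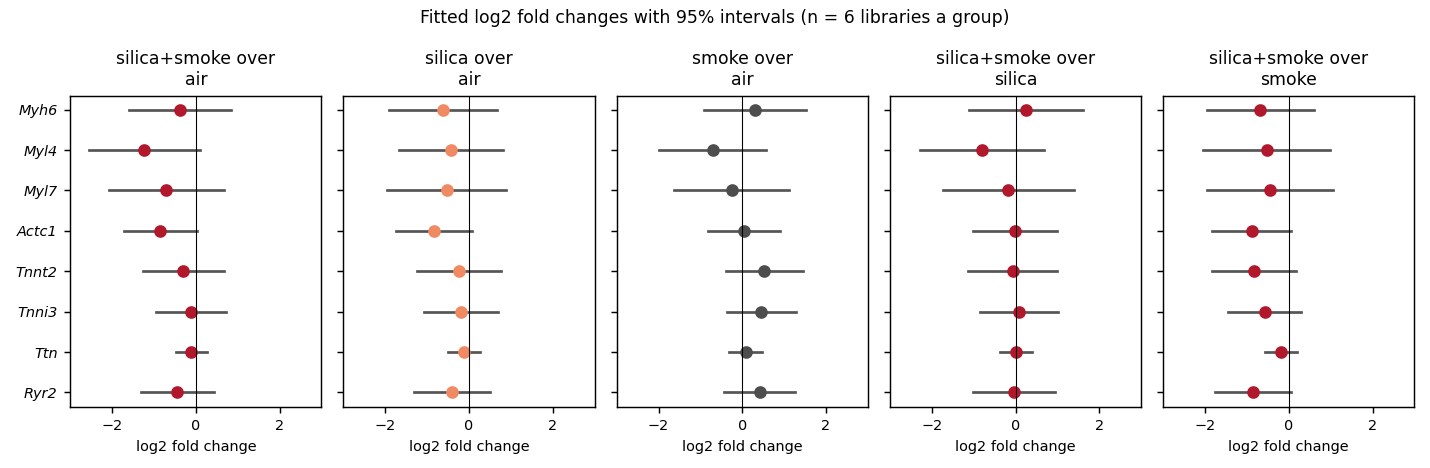
Fitted log2 fold change of each tested member with its 95% interval, in 5 comparisons of 6 libraries a group. Every interval includes 0; all 8 points lie below 0 in the combined group over air, silica over air and the combined group over smoke.

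The members' levels went together from lung to lung. Over 24 libraries all 28 pairs of the 8 tested members had a positive correlation of log2 CPM, with a median Pearson r of 0.802, and Myh6 with Ttn was the closest pair (r = 0.926, rho = 0.961, permutation p = 1e-05 for each, the smallest the resamples allow, adjusted p = 1.87e-05 and 2.8e-05 over the 28 pairs). The lowest was Myl4 with Actc1 (r = 0.206, p = 0.339, and rho = 0.481, p = 0.0181, adjusted 0.339 and 0.0231, by permutation). In all, 19 of the 28 pairs passed on Pearson r and 26 on Spearman rho. Smoke 2, where Myl4 and Myl7 had no count and the other members stood high on 1 to 9 counts, set the low values. Without it the median r was 0.755, the lowest 0.611 (Myl4 with Tnnt2) and the highest 0.928 (Myh6 with Actc1), and 28 of 28 pairs passed on both measures, with adjusted permutation p up to 0.00202 for r and 0.00464 for rho. Leaving out a further 2 libraries, those farthest from the median of the first gene of each pair, gave a median r of 0.726 and a range of 0.474 to 0.945. Deviations from the group means gave a median r of 0.769 in 23 libraries, so the pattern held within groups. No share of passing pairs among all tested genes is given here. The counts of passing pairs therefore cannot be called particular to the members.

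**Figure D4:**
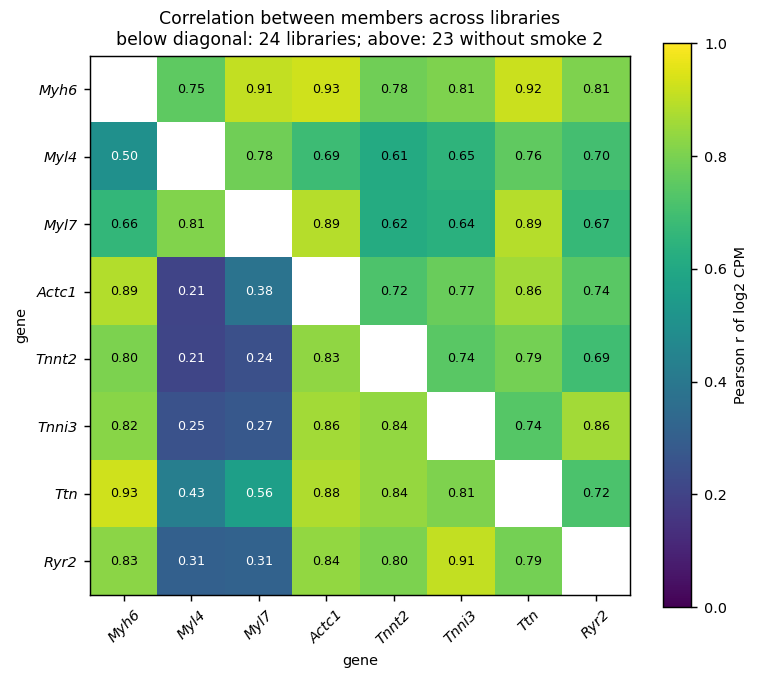
Pearson r of log2 CPM for each pair of the 8 tested members, in 24 libraries below the diagonal and in 23 without smoke 2 above it. The pairs of Myl4 or Myl7 with thin filament genes are low below the diagonal (down to 0.206) and at least 0.611 above it.

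Much of each member's spread was in common with the others, by a fit that also held the mean log2 CPM of the other 8 members fixed. That fit gave Myh6 a coefficient of variation of 0.170, against 0.821 without that term, and Actc1 0.146, against 0.531. Ryr2 had 0.186 (0.521 without the term) and Ttn 0.0961 (0.220). More was left for Myl7 at 0.404 (0.924), Myl4 at 0.329 (0.730), Tnnt2 at 0.292 (0.505) and Tnni3 at 0.213 (0.448). Per log2 step of that mean, Myl7 moved by 2.01, Myh6 by 1.99, Myl4 by 1.69, Actc1 by 1.09, Ryr2 by 1.02, Tnnt2 by 0.950, Tnni3 by 0.849 and Ttn by 0.386 on the log2 scale. The mean was a different one for each gene and always included Nppa, which had no count in 23 libraries. These slopes are therefore not strictly comparable between genes. At a given level of the others, 0 of 48 tests (8 members in 6 comparisons) passed by edgeR, where 17.5% of all such tests passed in the combined group against air, 2.83% in silica against air, 0.0966% in smoke against air, 0.204% in the combined group against silica, 5.24% in the combined group against smoke and 0% in the interaction. The lowest adjusted p was 0.201, for Actc1 in silica against air (-0.50 ± 0.21, unadjusted p = 0.0250). Without silica 1, smoke 1 and smoke 2 that value was -0.59 with an adjusted p of 0.0488, the 1 such call under the settings tried.

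The 15 genes most like the members, by Pearson r with the mean log2 CPM of the 9 across 24 libraries, began with sarcomere genes. Cmya5, a muscle scaffold protein, had r = 0.932 (0.937 without smoke 2), Myom2, a myomesin of the M-band, 0.833 (0.852) and Mybpc3, cardiac myosin binding protein C, 0.813 (0.808). Further down stood Ankrd1, a cardiac stress-responsive gene, at 0.717, the muscle intermediate filament gene Des at 0.661, the smooth muscle light chain Myl9 at 0.654 and Pln, phospholamban, which restrains the calcium pump, at 0.648. Others were genes of airway cells, among them Cyp2f4, a cytochrome P450, at 0.768 and the secretoglobin Scgb3a2 at 0.644. The remaining 6 were RGD1560020_predicted, Cdhr4, Gucy1a2, Serpina1, Gstm1 and Sorbs2, at 0.650 to 0.724. Below the first 3 this order rested on smoke 2, where each of the 15 had 1 to 4 counts. Without that library 4 of the 15 (Cmya5, Myom2, Mybpc3 and Cyp2f4) stayed among the first 15, and Myom1, another myomesin, entered at rank 6 (0.800). The rest of the new first 15 began with RGD1564567 at rank 2 (0.853), RGD1562658 at 4 (0.811) and LOC102554658 at 7 (0.787). Dnah5, of ciliated airway cells, stood at 8 (0.778). After it came RGD1561147, Ccdc78, Rfx3, Dzip1, LOC102551034 and Calml4, at 0.742 to 0.770. Ankrd1 stood at rank 33 (r = 0.686), Pln at 84 (0.630), Myl9 at 88 (0.626) and Des at 117 (0.606). These values describe 13314 ranked genes, with libraries and depth in common, and carry no test.

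Markers of other cells moved with the members to differing degrees, as a description over 23 libraries. The summed level of the ciliated cell list had r = 0.672 with the members' mean, smooth muscle 0.624, lung endothelium 0.581, skeletal muscle -0.31, mesothelium -0.40 and lung epithelium -0.46. The smooth muscle list (8 of 8 genes tested) summed to 352 to 480 CPM in the combined group, 334 to 591 CPM in the silica group, 444 to 647 CPM in the smoke group without smoke 2 and 440 to 1290 CPM in the air group, and 3 of its genes fell and 0 rose in the combined group against air (10.8% of all genes fell). The ciliated list summed to 80.3 to 128 CPM, 92.1 to 156 CPM, 97.0 to 144 CPM and 100 to 181 CPM in the same order of groups, with 2 of its 6 genes lower and 0 higher in the combined group against air. All 3 genes of the lung endothelium list also fell in that comparison. The part of these cells in the members' levels was not tested. The skeletal muscle list of 16 genes summed to 9.77 to 39.5 CPM in the 23 libraries. Most of that was Tnnt3, at 416 counts in all, and Ryr1, the skeletal ryanodine receptor, at 235, beside 256 for Myl4. The other 14 had 38 counts or fewer each, and Myod1, which sets the skeletal muscle fate, had none.

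Some genes that the ventricle uses were also counted, and their source was not tested. Of the ventricular list Myh7 had 219 counts in all, Myl3 89, Myl2 35, Nppb 1 and Irx4 none. Myh7, the beta myosin heavy chain of ventricle and slow skeletal muscle, went with the ventricular light chain Myl3 (r = 0.822, rho = 0.801, permutation p = 1e-05 and 2e-05, adjusted 2e-05 and 5.33e-05) and with myoglobin, Mb (r = 0.838, rho = 0.786, permutation p = 1e-05 and 3e-05, adjusted 2e-05 and 6e-05), in 23 libraries. Leaving out smoke 3 and smoke 5, the farthest from the median, gave r = 0.754 and 0.763. Myl4 had r = 0.0934 and rho = 0.133 with Myh7 (permutation p = 0.673 and 0.544, adjusted 0.673 and 0.544), and Myl7 had r = 0.358 and rho = 0.320 with it (p = 0.0950 and 0.136, adjusted 0.109 and 0.155, by permutation). Myl7 with Myh6 gave r = 0.907 and rho = 0.870 (permutation p = 1e-05 for each, adjusted 2e-05 and 4e-05), and Myh7 with Myh6 r = 0.581 and rho = 0.456 (permutation p = 0.00376 and 0.0307, adjusted 0.00501 and 0.041). These are among the 8 relations computed in this family.

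The share of atrial chains among the 4 light chain genes (Myl4 and Myl7 over these plus Myl2 and Myl3) varied from animal to animal. Smoke 3 had 17 atrial and 39 ventricular counts, a share of 30.4% with an exact binomial 95% interval of 18.8 to 44.1%. Smoke 4 had 34 and 21 (61.8%, 47.7 to 74.6%), smoke 5 had 19 and 6 (76.0%, 54.9 to 90.6%), smoke 6 had 23 and 5 (82.1%, 63.1 to 93.9%), and smoke 1 had 75 and 0 (100%, interval from 95.2% up). Smoke 2 had 1 light chain count, a ventricular one. Air 2 had 3 and 18 (14.3%, 3.05 to 36.3%), against 82 and 1 in air 1 (98.8%, interval from 93.5% up) and 165 and 4 in air 6 (97.6%, 94.1 to 99.4%). The combined libraries gave 138 atrial counts and 1 ventricular count in all (99.3%), the silica libraries 146 and 19 (88.5%), the smoke libraries 168 and 72 (70%) and the air libraries 342 and 32 (91.4%). Smoke 3 alone held 39 of the 72, and without it the smoke libraries gave 151 and 33 (82.1%). Combined 1 held 87 of the 138 combined atrial counts and the 1 ventricular count. Combined 2, 3 and 6 had 3, 2 and 1 light chain counts. Air 6 held 165 of the 342 atrial counts of the air libraries. Air 2 was not a heart-poor lung in every gene: it had 35 counts of Myh6, 15 of Myh7 and 27 of Mb. Myh7 made up 26.5% of Myh6 and Myh7 counts in smoke 3, 30.0% in air 2 and 0.455% in air 1, though reads could be shared between these neighbouring near copies. All intervals and limits cover counting error only.

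**Figure D5:**
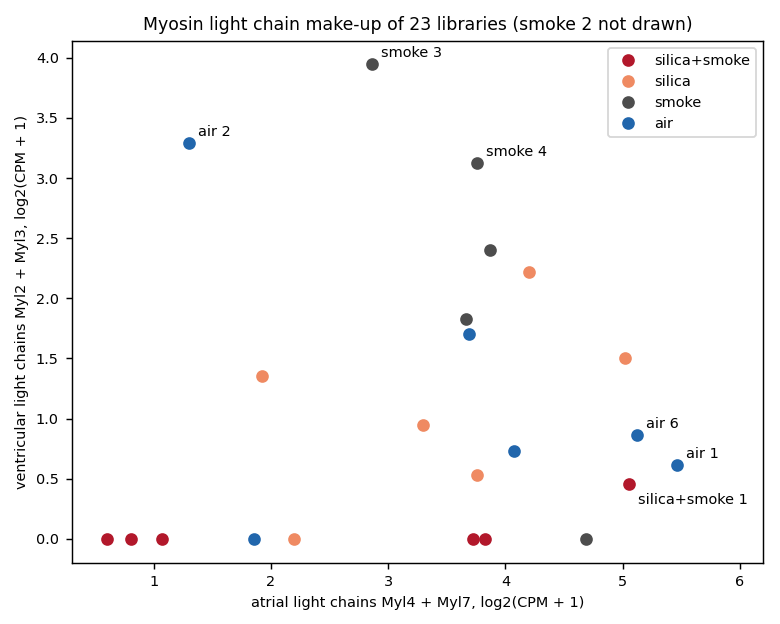
Summed ventricular light chains (Myl2 and Myl3) against summed atrial light chains (Myl4 and Myl7), each as log2(CPM + 1), in 23 libraries coloured by group. Smoke 3 and air 2 are high on the ventricular axis with few atrial counts, and air 1 and air 6 the reverse; combined libraries lie at or near 0 on the ventricular axis.

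Myh7 and Mb were lower in the combined group than in the smoke group, which had the highest median of the 4 groups for both. Medians in the air and silica groups were 1.85 and 1.68 CPM for Myh7 and 2.63 and 1.86 CPM for Mb. Myh7 had a lowest, median and highest level of 0, 0.413 and 5.63 CPM in the combined group against 1.65, 13.2 and 212 CPM in the smoke group, where the 212 CPM were 4 counts in smoke 2 and the next library had 19.2. Its log2 fold change was -3.01 ± 0.73 (adjusted p = 0.00704 by edgeR), and -2.91 (0.00629) without smoke 2. Mb, the oxygen store of heart and slow muscle, had 0, 0.939 and 3.70 CPM in the combined group against 0, 7.34 and 29.6 CPM in the smoke group, the 0 being smoke 2. Its log2 fold change was -3.19 ± 0.67 (adjusted p = 0.00280 by edgeR). Both calls held when any 1 library was left out, with adjusted p up to 0.0357 for Myh7 and 0.0264 for Mb. DESeq2 also called Myh7 (adjusted p = 0.00716) but gave no adjusted p for Mb, and with the compared groups only Mb did not pass the filter on low counts. Smoke against air gave 2.22 ± 0.63 for Myh7 (adjusted p = 0.228 by edgeR) and 1.56 ± 0.53 for Mb (0.331), and the interaction gave adjusted p of 0.514 and 0.676. Combined against air called neither, with -0.79 ± 0.86 for Myh7 (adjusted p = 0.56 by edgeR) and -1.63 ± 0.74 for Mb (0.115). The ventricular regulator Irx4 had no count.

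Of 64 genes in 8 lists of cardiac muscle parts, 62 were in the table and 33 were tested, 25 of them other than the members. In the combined group against air, 4 of the 25 fell and 0 rose (10.8% of all genes fell and 11.6% rose): Gja5 at -0.57 ± 0.13, Cacna1c at -0.55 ± 0.13, Tbx5 at -0.47 ± 0.12 and Nebl at -0.43 ± 0.10 (adjusted p = 0.00173, 0.00185, 0.00580 and 0.00324 by edgeR). In the combined group against smoke, 4 fell and 0 rose (5.57% and 7.34% of all genes): Myh7, Mb, Tbx5 at -0.44 ± 0.13 and Cacna1c at -0.43 ± 0.13 (adjusted p = 0.0249 and 0.0309 by edgeR). In silica against air 1 fell, Gja5, at -0.48 ± 0.13 (adjusted p = 0.0390 by edgeR, where 1.01% of all genes fell and 2.15% rose). DESeq2 did not call Gja5 in silica against air (adjusted p = 0.0850), nor Cacna1c (0.0707) or Tbx5 (0.0981) in the combined group against smoke. The Gja5 call was also lost on leaving out any 1 of air 1, 3, 4 or 6, silica 3 to 6, or combined 1 or 2 (adjusted p up to 0.156 by edgeR), that of Cacna1c without any 1 of smoke 3 to 6 or combined 1, 2 or 6 (up to 0.0831), and that of Tbx5 without smoke 3 or combined 2 (up to 0.108). Smoke against air, combined against silica and the interaction called 0 of the 25 (0.0525% of all genes fell and 0.0976% rose in the first, 0.128% and 0.12% in the second and 0% in the third). The median log2 fold change of the 25 was -0.20 in the combined group against air and -0.44 in the combined group against smoke.

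These called genes are also used outside the heart. Gja5 encodes connexin 40, of atrial muscle and arterial endothelium. Its CPM were 52.6, 68.5 and 76.5 (lowest, median, highest) in the combined group against 79.6, 99.3 and 112 in the air group. The arterial endothelium list, of which it is 1 of 6 genes, had 4 of its 5 tested genes lower and none higher in the combined group against air, where 10.8% of all genes fell. Cacna1c, the L-type calcium channel of heart and smooth muscle, had 69.7, 87.0 and 95.3 CPM in the combined group against 95, 120 and 176 CPM in the air group. Tbx5, a transcription factor of heart and lung mesenchyme, had 34.3, 44.4 and 52.1 CPM in the combined group against 49.4, 55.3 and 82.2 CPM in the air group. Nebl, the Z-disc protein nebulette, had 47.5, 60.5 and 83.5 CPM in the combined group against 76.2, 80.8 and 91.4 CPM in the air group. The groups overlapped for Cacna1c, Tbx5 and Nebl and not for Gja5. The share of all genes without overlap is not given here, so no weight is put on this. These 4 had r of 0.288 to 0.522 with the members' mean in 23 libraries, as a description.

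By list, calls stand beside the shares of all genes that fell. These were 10.8% in the combined group against air, 5.57% in the combined group against smoke and 1.01% in silica against air. With so few genes tested in a list, no list was compared with these shares. The thick filament had Myh7 alone called in the combined group against smoke, among 7 tested of 10. None of 4 tested thin filament genes passed in any comparison, and Tpm1, the most abundant, stood at -0.09 ± 0.09 in the combined group against air (adjusted p = 0.525 by edgeR). The Z-disc and scaffold list had Nebl called in the combined group against air, among 6 tested. The calcium list had Cacna1c called in the combined group against air and against smoke, among 5 tested. Atp2a2, the calcium pump, stood at 0.07 ± 0.08 in the combined group against air (adjusted p = 0.578 by edgeR). Among 5 tested channel and connexin genes Gja5 passed in the combined group against air and in silica against air. The potassium channel Kcnj2 stood at 0.10 ± 0.16 in the combined group against air (adjusted p = 0.702 by edgeR). Corin, the protease that activates natriuretic peptides, was the 1 gene of its list that could be tested, at -0.90 ± 0.36 in the combined group against air (adjusted p = 0.0692 by edgeR). Of 2 tested energy genes Mb passed in the combined group against smoke, and the fatty acid carrier Fabp3 stood at -0.95 ± 0.42 in the combined group against smoke (adjusted p = 0.141 by edgeR). Of 3 tested transcription factors Tbx5 passed in the combined group against air and against smoke. Mef2c and Mef2a stood at -0.20 ± 0.13 (adjusted p = 0.297 by edgeR) and -0.12 ± 0.09 (0.376) in the combined group against air.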

How the data were processed

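Gene counts were measured by RNA sequencing of ribosomal RNA-depleted total RNA, prepared with a strand-keeping kit per the labels' protocols. The authors deposited raw whole-number counts, 1 column for each library. HISAT2 2.1.0, HTSeq 0.11.2, SAMtools 1.8, Cufflinks, Trimmomatic 0.35 and bcl2fastq 2.19 are named in the submitters' processing notes. Genome build, annotation and strand setting were not given in the sources used here. Of 30069 lines, 26 repeated another line and were removed.

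Genes were kept by filterByExpr (minimum count 10), which left 13322, scaled by TMM and fitted with edgeR 4.0.16 in R 4.3.3 by the quasi-likelihood method, with 1 mean per group, 24 libraries and 20 residual degrees of freedom. Tests were two-sided, and calls had an adjusted p under 0.05. The SE is the log2 fold change over the root of F, and 95% intervals use it. The script was tested on simulated data. Correlations used log2 CPM with a prior count of 2, or log2(CPM + 1) for the 8 relations with other genes, and 1e+05 resamples (Python 3.11.15, scipy 1.17.1). DESeq2 1.42.0, limma 3.58.1 voom and left-out libraries were alternatives. Members, marker lists and cardiac lists were chosen with earlier results of these data known. The genes named are the 9 members, from each list the called genes and the 2 most abundant, the 15 genes most like the members, and the nearest copies of each member. Groups follow the labelled treatment; replicate numbers follow accession order and pair nothing. Labels call the libraries separate animals. Sequences and gene order come from RefSeq (GRCr8).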

Additional observations from a re-analysis of the deposited data

Results flagged for a closer look

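Of 41 groups of 6 libraries examined (the members and 2 sums over them), 9 had a library far from the other 5. In 8 of these 9 it was smoke 2. The rule's rate by chance, about 1 in 20, is no yardstick here. The groups share libraries, the sums hold the same genes, and 1 count in smoke 2 is already 53.0 CPM. Smoke 2, of 21629 counts, was far above the rest of the smoke group for Myh6 at 265 CPM (the next library at 73.5), Tnnt2 at 53.0 (15.0), Tnni3 at 53.0 (13.0), Actc1 at 318 (30.0), Ryr2 at 159 (26.4) and Ttn at 477 (303). It was far above it also for the sum of the 9 members at 1320 (453) and the sum without Ttn at 847 (164). These rest on 1 to 9 counts a gene, and the exact Poisson intervals ran from 1.34 to 295 CPM for Tnnt2 and Tnni3 and from 218 to 905 CPM for Ttn. Nppa in smoke 3, at 0.740 CPM from 2 counts, was far from the others of its group, which were all at 0.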

How the results depend on the processing

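No paired analysis was possible because the labels number the animals on through the groups, so no replicate number is shared. Of 1473 member values under other settings, 1357 kept their direction and their side of the threshold, 4 passed it (voom, above) and 112 changed sign, 93 of these on leaving out 1 library, across 21 member results whose adjusted p never passed; the cause was not tested.

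Genes called, combined against air, were 1665 by DESeq2. Silica against air gave 189 by DESeq2, 909 by voom, 91 with the compared groups only and 1614 without silica 1, smoke 1 and smoke 2 (libraries an earlier analysis found apart). Smoke against air gave 72 by voom, 5 with the compared groups only and 12 without smoke 2 and silica 4. Combined against silica gave 116 by voom, 100 with the compared groups only and 58 without smoke 2 and silica 4. Combined against smoke gave 823 by DESeq2, 3368 by voom (4 members) and 2751 without the first 3 libraries. The interaction gave 1 by DESeq2 and 9 by voom. The median r of the members was 0.7087 as Spearman rho, 0.7665 on deviations from group means, 0.7603 without the 3 libraries, 0.8203 without smoke 2 and silica 4 and 0.7449 without the 2 farthest. The fold range of the summed members was 3.587 without smoke 2 and silica 4, and 1 member passed at a given level of the others without the 3 libraries.

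Sign changes were, by voom, Tnnt2 at 0.174 and Myl4 at 0.272 or Tnnt2 at 0.302 (combined, then silica, against air), Myl7 at 0.443 (smoke against air), Myh6 at -1.04, Tnni3 at -0.144 and Ttn at -0.0135 (combined against silica) and Myl7 at -1.84 (interaction). DESeq2 gave Actc1 0.111 (combined against silica). Without the 3 libraries, Actc1 stood at -0.0557 (smoke against air), Tnnt2 at 0.157, Actc1 at 0.208 and Ryr2 at 0.188 (combined against silica), and Myh6 at 0.0754, Myl4 at 0.454 and Actc1 at 0.263 (interaction). Without smoke 2 and silica 4, Actc1 stood at -0.0251 (smoke against air), Ryr2 at 0.0266 and Ttn at -0.0241 (combined against silica).

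Leaving out 1 library at a time, the log2 fold changes that crossed 0 ran as follows. Combined against air: Tnni3 -0.456 to 0.11, Tnnt2 -0.536 to 0.0215, Ttn -0.222 to 0.0445. Silica against air: Myl4 -0.702 to 0.129, Tnni3 -0.425 to 0.0355, Tnnt2 -0.472 to 0.0817, Ttn -0.219 to 0.0254. Smoke against air: Actc1 -0.167 to 0.435, Myl7 -0.593 to 0.0782. Combined against silica: Actc1 -0.355 to 0.209, Myh6 -0.449 to 0.642, Myl7 -1.37 to 0.362, Ryr2 -0.495 to 0.203, Tnni3 -0.269 to 0.311, Tnnt2 -0.278 to 0.158, Ttn -0.105 to 0.121. Interaction: Actc1 -0.446 to 0.176, Myh6 -0.756 to 0.341, Myl4 -0.808 to 0.406, Myl7 -1.12 to 0.617, Ttn -0.206 to 0.0392. Genes called ran from 16 (without silica 1) to 113 (without air 6) for combined against silica, 905 (smoke 3) to 2271 (air 6) for combined against smoke, 124 (silica 5) to 1183 (silica 1) for silica against air, 6 (air 3) to 42 (air 6) for smoke against air, and 2361 to 3270 for combined against air. The members' median coefficient of variation ran from 0.485 to 0.541, their median r from 0.7569 (smoke 2) to 0.8329, and their fold range from 3.572 (smoke 2) to 7.308.

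Of 277 values of the 6 called list genes, taken after their calls were seen, 254 kept the call and 23 lost it, none changing sign. The losses were Gja5 in silica against air (10 of the left-out libraries, adjusted p up to 0.156), Cacna1c (7, up to 0.0831) and Tbx5 (2, smoke 3 and combined 2, up to 0.108) in combined against smoke, DESeq2 for all 3 (0.0850, 0.0707, 0.0981), and the compared groups alone for Gja5. At 3 counts, depth limits smoke 2 to levels over 159 CPM.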
